A study of Mus musculus with 6 samples.

Results

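The 9 genes described here are core genes of Sonic hedgehog signalling, chosen by name: the ligand gene Shh, the receptor and co-receptor genes Ptch1, Smo and Gas1, the transcription factor genes Gli1, Gli2 and Gli3, and the inhibitor genes Hhip and Sufu. All 9 were among the 24453 gene symbols counted in each library, and all 9 passed the filter on low counts. The libraries hold RNA of hair follicle cells sorted from back skin of newborn mice at postnatal day 0. There were 3 libraries labelled Control and 3 of the genotype Ring1a-/- Ring1b-/I53A, named mutant here. The mutants thus lack Ring1a and carry Ring1b as 1 null and 1 I53A copy, and no group holds one of these changes alone. Ring1a and Ring1b are the ubiquitin ligases of Polycomb repressive complex 1, and I53A is known to weaken the ligase activity of Ring1b. The genotype of the controls, the way the null allele was made and the cells in which it was lost are not stated in the labels. The comparison asks how these signalling genes differ between mutant and control follicle cells.

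Hedgehog signalling begins when a secreted ligand binds Ptch1, which otherwise holds the membrane protein Smo inactive. Active Smo acts in the primary cilium to release the Gli factors from Sufu, and Gli1, Ptch1 and Hhip are well-known transcriptional targets of the pathway. In developing hair follicles the ligand comes from the epithelium of the placode and later the matrix, and the signal is needed for the follicle to grow downward.

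Library totals were 14335156 to 18811587 counts, so that 1 CPM, a count scaled by the effective library size, stood for 14.7 to 18.2 reads. Ring1, the gene of Ring1a, was at 16.8, 22.1 and 21.1 CPM in the controls and at 3.23, 7.10 and 4.88 CPM in the mutants (edgeR adjusted p = 0.0113). Rnf2, the gene of Ring1b, was at 59.8 ± 6.93 and 67.1 ± 3.68 CPM (SD, n = 3 libraries each, as in all mean values here, adjusted p = 0.736). Rnf2 was not lower in the mutants, so these levels gave no sign of the null Ring1b copy. Counts per gene cannot show the I53A codon. The protocol in the labels describes a gate on Sca1-positive cells, while the sample labels say hair follicle. Ly6a, which encodes Sca1, was at 0.502 to 1.49 CPM in the 6 libraries, and the epithelial sort marker Epcam at 131 to 272 CPM. The 15 listed markers of follicle epithelium summed to 6293 to 6552 CPM in controls and 5655 to 6357 CPM in mutants, with Lgr5 (178 ± 37.7 and 83.7 ± 1.98 CPM, adjusted p = 0.0125) and Nfib (1478 ± 104 and 916 ± 99.0 CPM, 0.0396) called lower. These 2 genes were chosen after their values were seen, and without 1 library the call was lost in 3 of 6 fits for Lgr5 and in 5 of 6 for Nfib. Of the 15 markers 8 had a negative and 7 a positive log2 fold change. With the replicate number as a block, 2 were called lower, Lgr5 and Nfib, and 2 higher, Krt17 and Krt79. Krt17 rose from 208 ± 23.1 to 348 ± 84.2 CPM and Krt79 from 92.5 ± 27.2 to 213 ± 99.2 CPM (edgeR adjusted p = 0.0766 and 0.0919 without the block). In the blocked fit 6.09% of all tested genes were called higher and 3.29% lower. The 8 markers of suprabasal interfollicular epidermis summed to 4094 to 5585 CPM in controls and 2678 to 4355 CPM in mutants. Krt1 (3358 ± 764 and 2126 ± 510 CPM) and Krt10 (1357 ± 142 and 982 ± 276 CPM) made up most of this sum, and both had a negative log2 fold change. The other 6 markers had a positive one, and none of the 8 was called by edgeR without the block. With the block Krtdap and Grhl3 were called higher and Krt1 lower. Xist reads were between 106491 and 139394 in controls 1 and 2 and mutant 2 and at most 225 in the other 3 libraries, so the controls held 2 female and 1 male library and the mutants 1 female and 2 male ones. The labels do not say which libraries came from separate animals, so that the p-values measure the spread between these libraries, part of which may be technical.

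The level of each gene was compared with that of the others per kilobase (kb) of annotated exons. In controls the order of levels was Ptch1 (141 ± 1.27 CPM per kb), Gli2 (66.7 ± 17.2), Gas1 (45.9 ± 6.10), Gli1 (44.0 ± 6.79), Shh (35.4 ± 18.1), Smo (32.9 ± 3.60), Gli3 (24.7 ± 5.60), Sufu (5.47 ± 0.825) and Hhip (0.900 ± 0.473). Neighbours in this order from Gli2 down to Gli3 lay within the sum of their SDs of each other, so these neighbours were not separated. Gli2, Gas1 and Gli1 each stood above Smo and Gli3 by more than the summed SDs. Ptch1 stood above all other members and Sufu and Hhip below them, by more than these spreads. In mutants the order was the same at the top and bottom, with Ptch1 at 119 ± 11.1 and Hhip at 1.57 ± 0.136 CPM per kb. Shh stood below Smo there, at 21.3 ± 11.03 against 30.7 ± 1.87 CPM per kb, a gap smaller than the spread of Shh. The exon lengths join all annotated transcripts, so a gene with long rare exons appears lower than its main transcript is.

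**Figure D1:**
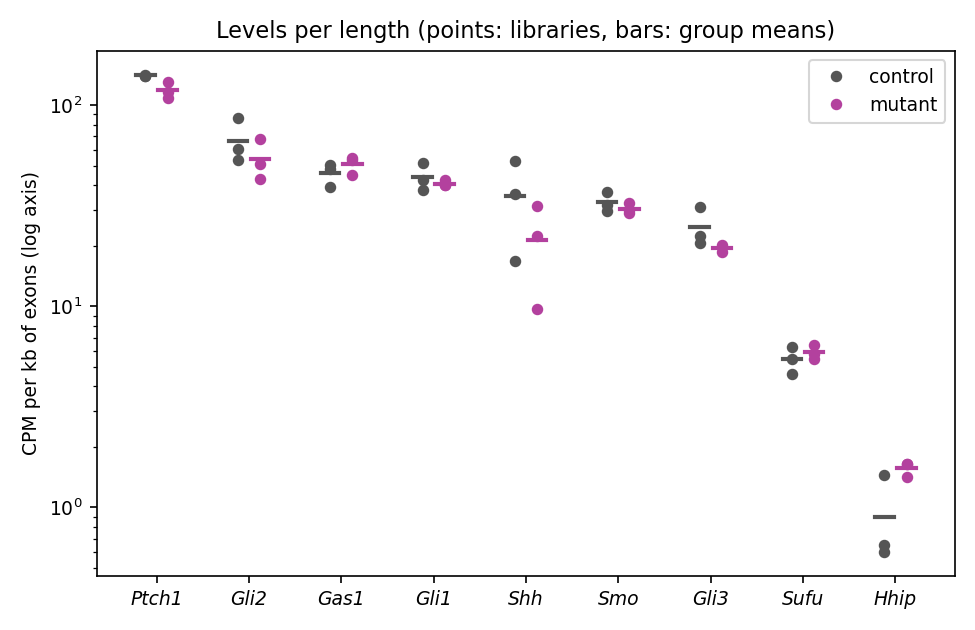
Level of each gene in CPM per kilobase of exons, on a log axis, for 3 control and 3 mutant libraries; points are libraries and bars are group means. Ptch1 is highest in every library and Hhip lowest, and the points of Shh spread more than those of the other genes near its level.

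RefSeq promoter sequences (GRCm38.p6, 250 bases before to 50 bases after the start) were matched for 7 of the 9 members, Ptch1, Smo, Gas1, Gli2, Gli3, Hhip and Sufu. Polycomb complexes are known to act largely at CpG-rich promoters, so the CpG sites are shown in capitals for 2 members, the gene with the highest level and the gene with the largest positive difference. Ptch1 is read from the minus strand at chr13:63565686-63565985 and Hhip from the minus strand at chr8:80057959-80058258. The annotated Ptch1 gene begins further upstream, at 63573598, so this window is not that of its outermost start.
Ptch1: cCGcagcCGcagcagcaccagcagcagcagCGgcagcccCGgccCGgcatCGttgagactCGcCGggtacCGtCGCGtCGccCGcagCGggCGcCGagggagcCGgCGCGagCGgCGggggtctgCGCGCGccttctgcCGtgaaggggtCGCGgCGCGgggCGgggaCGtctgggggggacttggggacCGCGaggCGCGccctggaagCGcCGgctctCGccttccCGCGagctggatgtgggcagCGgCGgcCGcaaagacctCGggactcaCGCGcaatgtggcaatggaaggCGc
Hhip: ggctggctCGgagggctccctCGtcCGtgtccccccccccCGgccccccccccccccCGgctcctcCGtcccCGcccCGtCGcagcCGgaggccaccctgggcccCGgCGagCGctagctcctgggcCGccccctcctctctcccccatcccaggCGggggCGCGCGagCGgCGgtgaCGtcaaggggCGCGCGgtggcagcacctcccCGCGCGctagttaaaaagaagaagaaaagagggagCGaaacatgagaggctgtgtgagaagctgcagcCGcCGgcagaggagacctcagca
The Ptch1 stretch held 47 CpG sites, a number reached by 1.44% of 32851 promoters of this length. Hhip held 30, reached by 11.7%. Gli3 held 39, Gli2 28, Gas1 17, Smo 17 and Sufu 12, against a median of 7 over all promoters. The Gli recognition motif GACCACCCA was searched on both strands and lay in none of the 7 stretches and in 0.253% of all promoters, which says only that these letters are not in these windows.

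None of the 9 members was called between mutant and control by the edgeR quasi-likelihood test over 14345 genes at an adjusted p under 0.05, where 3.0% of all tested genes were called. None had an unadjusted p under 0.05, as 14.9% of all tested genes did, and none was called by DESeq2 or limma-voom. The median log2 fold change of the members was -0.11, against 0.00 (-0.0033) over all tested genes, with 6 members below 0 and 3 above. The labels number the libraries 1 to 3 in both groups, and libraries of the same number deviated from their group means together. With the number as a block, 1 member, Shh, was called lower, where 9.38% of all genes were called in either direction and 3.29% as lower. In that blocked fit 5 of the 9 members, Shh, Ptch1, Gli2, Gli3 and Hhip, had an unadjusted p under 0.05, as 24.3% of all tested genes did. In all 3 numbers the mutant library lay below its control for 5 members, Shh, Ptch1, Smo, Gli2 and Gli3, a pattern that 22.4% of all tested genes showed. The groups did not overlap for 2 members, Ptch1 and Gli3, against 21.2% of all tested genes.

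**Figure D2:**
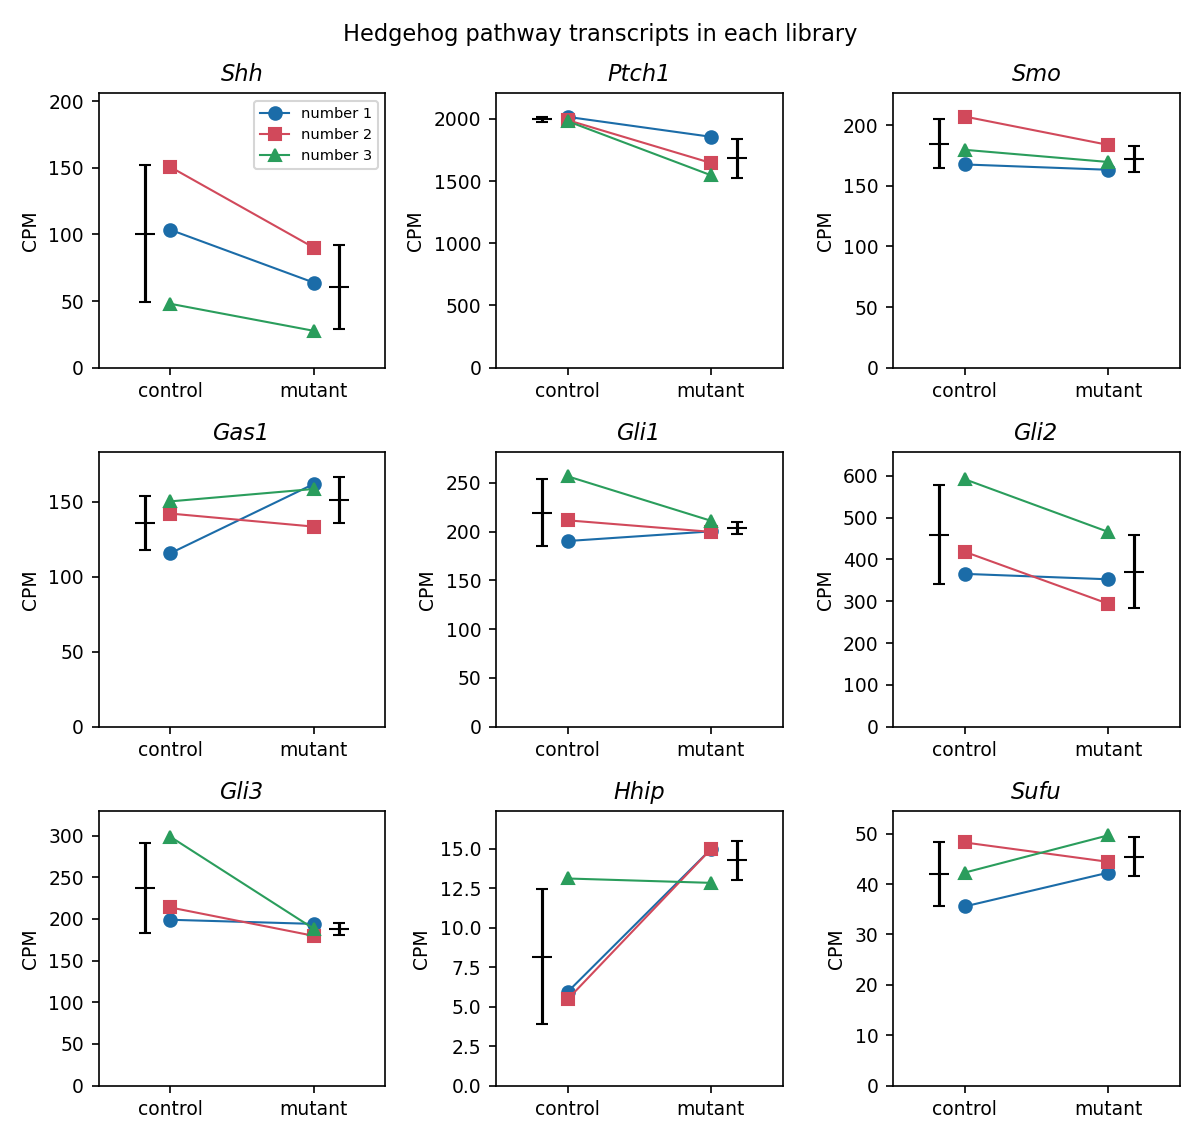
CPM of the 9 genes in each library, with lines joining the control and the mutant library of the same number, and group means with SD in black beside them; each panel starts at 0. All 3 lines of Shh slope down, from levels that differ 3.14-fold among controls, the lines of Gli1 come together in the mutants, and Hhip is low in controls 1 and 2 only.

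Shh (chromosome 5, 28456815 to 28467256, minus strand, GRCm38) encodes the ligand. Its level was 103.5, 151 and 48.0 CPM in controls 1, 2 and 3 and 63.9, 90.2 and 27.7 CPM in mutants 1, 2 and 3. Number 2 was highest and number 3 lowest in both groups, and the groups overlapped. The spread within a group was wide, 3.14-fold between the highest and lowest control and 3.26-fold between the highest and lowest mutant. Within a number the mutant level was 0.618, 0.599 and 0.577 times that of its control. The log2 fold change was -0.73 (SE 0.45, 95% interval -1.75 to 0.28, adjusted p = 0.521) without the block. With the block on replicate number Shh fell by 0.74 on the log2 scale (SE 0.12, adjusted p = 0.0056). The call with the block held when both libraries of number 1, 2 or 3 were left out in turn (edgeR adjusted p = 0.0279, 0.0260 and 0.000275). These fits reuse the same libraries. Without the block and without 1 library Shh was called in 0 of 6 fits. Shh shares 446 exonic bases with 9530036O11Rik on the opposite strand, which had 37 reads in all 6 libraries.

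The libraries also differed in Shh by sex. The female libraries, controls 1 and 2 and mutant 2, were at 90.2 to 151 CPM and the male ones at 27.7 to 63.9 CPM. Within the females the single mutant was below both controls, and within the males the single control (48.0 CPM) lay between the mutants (63.9 and 27.7 CPM). With sex as a term in place of the block the log2 fold change of Shh was -0.28 (edgeR adjusted p = 0.759). Numbers 2 and 3 each pair libraries of the same sex and number 1 does not, and without number 1 the blocked log2 fold change was -0.78. The number and the sex were not fitted together, and the part of sex in the lower level of Shh was not tested.

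Markers of the epithelium that makes Shh were read beside it. Of 13 such genes on a list, 7 had a negative and 6 a positive log2 fold change, and none was called by edgeR, with 3 at an unadjusted p under 0.05 (14.9% of all tested genes). No marker of the list was at 0 in all libraries, and their summed level was 1647 to 1804 CPM in controls and 1475 to 1836 CPM in mutants. Edar, the ectodysplasin receptor of the placode, was at 105, 119 and 44.5 CPM in the controls and 72.4, 94.5 and 27.3 CPM in the mutants, the same order of libraries by number as Shh. It was called lower with the block alone (log2 fold change -0.52, SE 0.13, adjusted p = 0.0385, and 0.718 without the block), a call that was lost without number 1 (0.164) or number 2 (0.0639). Fgf20, a placode growth factor, was at 4.97, 3.45 and 2.61 CPM in controls and 1.43, 1.07 and 0.267 CPM in mutants, without overlap (edgeR adjusted p = 0.182, 0.0618 with the block, and 0.0433 by DESeq2). Of 15 genes of proliferating cells 13 had a negative log2 fold change and 2, Mki67 and Mcm6, were called lower, where 0.404% of all tested genes were called lower. With the block 6 were called lower, where 3.29% of all tested genes were. Mki67 was at 2120 ± 375 and 1219 ± 129.9 CPM and Mcm6, a replication helicase gene, at 118 ± 25.7 and 54.8 ± 9.75 CPM (adjusted p = 0.0408 and 0.0239), and without 1 library the call of Mki67 was lost in all 6 fits and that of Mcm6 in 5 of 6. The summed level of the 15 genes was 3049 to 3741 CPM in controls and 2001 to 2243 CPM in mutants. The part of these genes in the level of Shh was not tested. In RNA of many cells, fewer cells that make Shh and less Shh RNA per cell cannot be told apart.

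Among the receptors, Ptch1 (chromosome 13, 63508328 to 63573598, minus strand) binds the ligand and is itself a target of the signal. It was at 2016, 1989.6 and 1981 CPM in the controls and 1856, 1646 and 1547 CPM in the mutants. The controls lay within 1.02-fold of each other and every mutant was below every control. The log2 fold change was -0.25 (SE 0.14, 95% interval -0.57 to 0.08, adjusted p = 0.489, and 0.116 with the block), so this difference did not pass in either fit. Smo (chromosome 6, 29735503 to 29761365, plus strand), the membrane protein that passes the signal on, was at 168, 207 and 179.8 CPM in controls and 163, 184 and 169.7 CPM in mutants. Its groups overlapped (-0.10, SE 0.15, interval -0.43 to 0.23, adjusted p = 0.832). Gas1 (chromosome 13, 60174405 to 60177365, minus strand), a co-receptor that helps Ptch1 bind the ligand, was at 116, 142 and 150.1 CPM in controls and 162, 133 and 158 CPM in mutants. It was higher in the mutants of numbers 1 and 3 and lower in number 2 (0.15, SE 0.16, interval -0.21 to 0.52, adjusted p = 0.752).

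The Gli factors carry the signal into the nucleus. Gli1 (chromosome 10, 127329882 to 127341974, minus strand), an activator whose transcription is a usual readout of the pathway, was at 190.4, 212 and 257 CPM in controls and 200.2, 199.8 and 211 CPM in mutants. The mutants lay within the range of the controls, and the log2 fold change was -0.11 (SE 0.15, adjusted p = 0.830). Its 95% interval ran from 0.730-fold to 1.18-fold of the control level. Without control 3, the highest library, the log2 fold change of Gli1 was 0.0292. Gli2 (chromosome 1, 118834132 to 119053619, minus strand), the main activator of the pathway in skin, was at 365, 418 and 592 CPM in controls and 352, 294 and 466 CPM in mutants. Each mutant was below its own control and the groups overlapped (-0.31, SE 0.22, interval -0.81 to 0.19, adjusted p = 0.603, and 0.119 with the block). Gli3 (chromosome 13, 15463235 to 15730026, plus strand), which acts mainly as a repressor, was at 199, 214 and 298 CPM in controls and 194, 179.7 and 188 CPM in mutants. All mutants were below all controls, and control 3 stood well above the rest (-0.34, SE 0.18, interval -0.73 to 0.06, adjusted p = 0.427, and 0.168 with the block). Gli1 shares 62 exonic bases with Arhgap9 on the opposite strand, which had 499 reads in all 6 libraries.

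Hhip (chromosome 8, 79965851 to 80058006, minus strand) encodes a membrane protein that binds and holds back Hedgehog ligands. It was at 5.93, 5.46 and 13.1 CPM in controls, from 87, 87 and 231 reads, and at 14.97, 14.97 and 12.8 CPM in mutants, from 273, 251 and 192 reads. Controls 1 and 2 were below all mutants, while control 3 was above mutant 3. Of the 9 members it had the largest positive log2 fold change, 0.80 (SE 0.36, 95% interval -0.00501 to 1.61, adjusted p = 0.339, and 0.128 with the block). The difference by number was 1.34, 1.45 and -0.03 on the log2 scale. Without control 3 Hhip was called higher (1.33, edgeR adjusted p = 0.0378), and with the block and without number 3 it was called as well (1.40, adjusted p = 0.0051). Dermal cells also express Hhip. The sort described in the labels takes Epcam-positive cells. RNA of the dermal marker Dcn was at 339, 290 and 600 CPM in controls and 452, 562 and 347 CPM in mutants. Pdgfra, another dermal marker, was at 2.66, 2.82 and 7.04 CPM in controls and 7.51, 4.83 and 5.08 CPM in mutants. Like Hhip, Dcn and Pdgfra were higher in the mutant of numbers 1 and 2 and lower in that of number 3. Col1a1 was lower in the mutant of all 3 numbers (132 ± 37.4 and 102 ± 33.7 CPM). Of 13 dermal papilla and fibroblast markers, 11 were tested, 5 with a negative and 6 with a positive log2 fold change. None was called by edgeR, with 1 at an unadjusted p under 0.05. The summed level of the markers was 621 to 1106 CPM in controls and 692 to 969 CPM in mutants. The part of such cells in the level of Hhip was not tested. Sufu (chromosome 19, 46396896 to 46488804, plus strand), which binds Gli proteins and holds them inactive, was at 35.6, 48.3 and 42.3 CPM in controls and 42.3, 44.4 and 49.7 CPM in mutants. Its groups overlapped (0.11, SE 0.19, interval -0.31 to 0.53, adjusted p = 0.856).

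**Figure D3:**
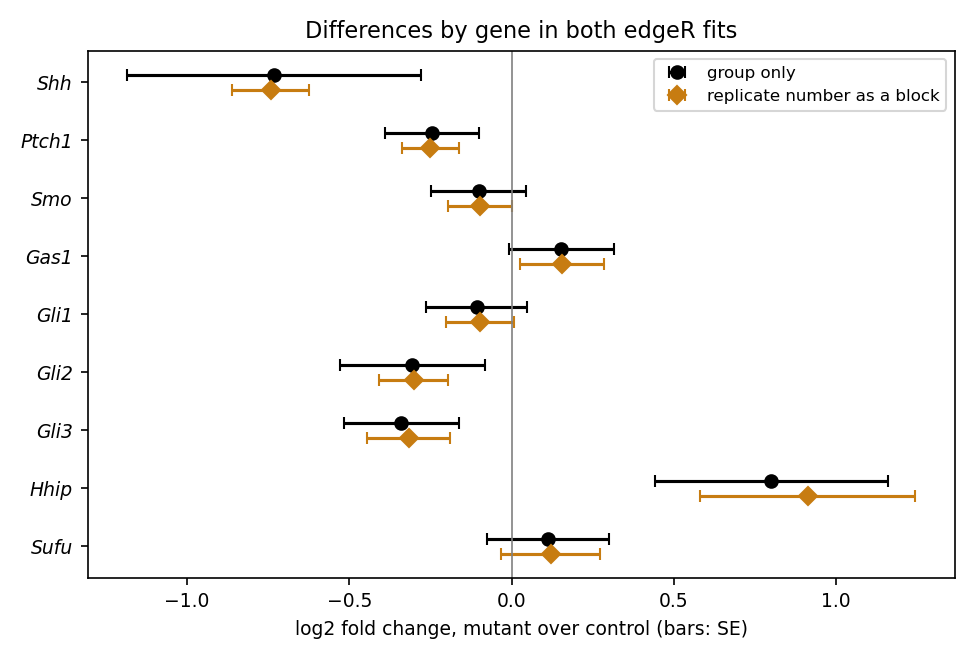
Log2 fold change of mutant over control for each gene, with standard errors as bars, from the edgeR fit with group only (black circles) and the blocked fit by replicate number (orange diamonds). The centres lie close together in both fits, and the bar of Shh shrinks from 0.45 to 0.12 with the block while that of Hhip stays wide.

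Ratios within a library do not depend on the scaling between libraries, and 3 of them were computed after the values were seen. There were 1.84, 1.40 and 5.35 Gli1 reads per Shh read in controls 1, 2 and 3 and 3.13, 2.21 and 7.63 in mutants 1, 2 and 3. The ratio was higher in the mutant of every number, while the groups overlapped. The mean difference was 0.65 on the log2 scale (exact permutation test, two-sided, p = 0.5, adjusted over the 3 ratios 0.6, where 3 against 3 libraries allow no p under 0.1). With the libraries paired by number, the differences were 0.77, 0.66 and 0.51, and the exact sign-flip permutation test gave p = 0.25, the smallest that 3 pairs allow. Ptch1 reads per Shh read were 19.5, 13.2 and 41.3 in controls and 29.0, 18.2 and 55.9 in mutants, higher in the mutant of every number (difference 0.49, exact permutation p = 0.6, adjusted 0.6, paired 0.25). Without mutant 3 these differences were 0.13 for Gli1 and 0.066 for Ptch1, and without control 3 they were 1.22 and 0.95. Both ratios divide by Shh reads, so their rise within each number follows from the lower Shh already given and is no separate result. Hhip reads per Ptch1 read, which compare 2 targets of the pathway, were 0.00294, 0.00274 and 0.00662 in controls and 0.00806, 0.00910 and 0.00830 in mutants. Every mutant was above every control (difference 1.17, exact permutation p = 0.1, adjusted 0.3, paired 0.25), and without any 1 library the difference ran from 0.94 to 1.58.

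The wider pathway was read from 5 lists with 88 symbols, of which 79 were tested. One of these genes, Igfbp3, was called higher (2.59% of all tested genes were called higher) and none lower. The median log2 fold change over the lists was -0.05. With the block 4 rose and 5 fell, where 6.09% of all genes rose and 3.29% fell. Of these 9, Igfbp3 and Foxm1 were also called without each number in turn, and the other 7 were lost without at least 1 number. DESeq2 called 6 of the 79 genes, Igfbp3, Gpc6, Gpc4, Scube3, Ift80 and Foxm1. Over all 14345 genes DESeq2 called 739 higher and 247 lower.

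Igfbp3, an IGF-binding protein on the list of 19 reported target genes, rose from 21.5, 21.0 and 19.4 CPM in controls to 68.9, 84.1 and 104.5 CPM in mutants, 4.16-fold (log2 fold change 2.06, SE 0.20, adjusted p = 0.000812). All mutants were above all controls. Of 13 tested genes on this list 4 had an unadjusted p under 0.05, against 14.9% of all tested genes, and the median was 0.14. Ccnd1, a G1 cyclin, was at 278 ± 36.2 and 378 ± 9.29 CPM (0.44, SE 0.15, adjusted p = 0.168) and was called higher in the blocked fit (adjusted p = 0.0226). The mitotic transcription factor gene Foxm1 was at 173 ± 52.1 and 104 ± 6.54 CPM (-0.74, SE 0.22, adjusted p = 0.120) and fell with the block (adjusted p = 0.0220), beside the lower proliferation genes given above. The survival gene Bcl2 was at 360 ± 45.9 and 279 ± 13.5 CPM and passed in neither fit (adjusted p = 0.277 and 0.0806).

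The list of other ligands and ligand release also held 2 glypican genes, Gpc6 and Gpc4, which encode no ligand. Of its 8 tested genes, none was called by edgeR without the block. Gpc6, Gpc4 and Scube3 were the 3 with an unadjusted p under 0.05 (14.9% of all tested genes). The blocked fit called 2 higher and 1 lower, where 6.09% of all tested genes were called higher and 3.29% lower. The glypican gene Gpc6, a cell-surface proteoglycan, was at 14.8, 14.8 and 13.6 CPM in controls and 30.04, 21.5 and 31.8 CPM in mutants, without overlap (0.95, SE 0.22, adjusted p = 0.0554, blocked 0.0227). Another glypican gene, Gpc4, was at 161 ± 31.7 and 100.4 ± 9.86 CPM (-0.68, SE 0.18, adjusted p = 0.0817, blocked 0.0258). Scube3, of a secreted protein family whose member Scube2 helps release Shh, was at 33.9 ± 13.4 and 61.9 ± 3.38 CPM (0.87, SE 0.26, adjusted p = 0.127, blocked 0.0238). Scube1, of the same family, was at 72.8 ± 9.16 and 58.1 ± 12.9 CPM and passed in neither fit (adjusted p = 0.522 and 0.286).

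Of 6 tested genes of other receptors and co-receptors, none was called by edgeR in either fit and none had an unadjusted p under 0.05. The co-receptor genes Boc (101 ± 10.8 and 83.7 ± 9.64 CPM, adjusted p = 0.519) and Cdon (218 ± 64.3 and 191 ± 39.7 CPM, adjusted p = 0.799) bind the ligand beside Ptch1. Evc2, a ciliary partner of Smo, was at 19.3 ± 3.60 and 21.4 ± 2.93 CPM, and Gpc3, a glypican that competes for the ligand, at 114 ± 12.6 and 121 ± 8.02 CPM (adjusted p = 0.841 and 0.856).

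Of 24 tested genes of signal relay and Gli processing none was called by edgeR in either fit and none had an unadjusted p under 0.05. Cul3, a ubiquitin ligase scaffold that acts on Gli proteins, was at 493 ± 23.1 and 401 ± 29.4 CPM (-0.30, SE 0.14, adjusted p = 0.341). Sap18 (38.3 ± 13.2 and 27.0 ± 3.28 CPM), the kinase gene Ulk3 (21.9 ± 1.46 and 27.2 ± 4.69 CPM) and Gsk3b (733 ± 45.1 and 637 ± 30.2 CPM), a kinase that marks Gli proteins for processing, had adjusted p of 0.438, 0.554 and 0.555. Of 28 genes of the primary cilium, where Smo and the Gli proteins meet, none was called by edgeR without the block. In that fit 3 had an unadjusted p under 0.05, a share below the 14.9% of all tested genes. Those 3 were called lower with the block, where 3.29% of all tested genes were called lower. None of the 3 was called with the block when number 1 or number 2 was left out. They were Ift80, of the transport particle that enters the cilium (24.9, 26.2 and 12.8 against 11.3, 10.7 and 7.82 CPM, adjusted p = 0.111, blocked 0.0188), the motor gene Dync2h1 (91.0 ± 2.97 and 63.2 ± 11.2 CPM, 0.175 and 0.0351) and Cep290 of the ciliary gate (83.5 ± 8.33 and 60.6 ± 8.29 CPM, 0.239 and 0.0460). Wdr35, of the particle that returns from the tip, was at 23.6 ± 1.92 and 16.8 ± 3.53 CPM and passed in neither fit (adjusted p = 0.348 and 0.164).

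**Figure D4:**
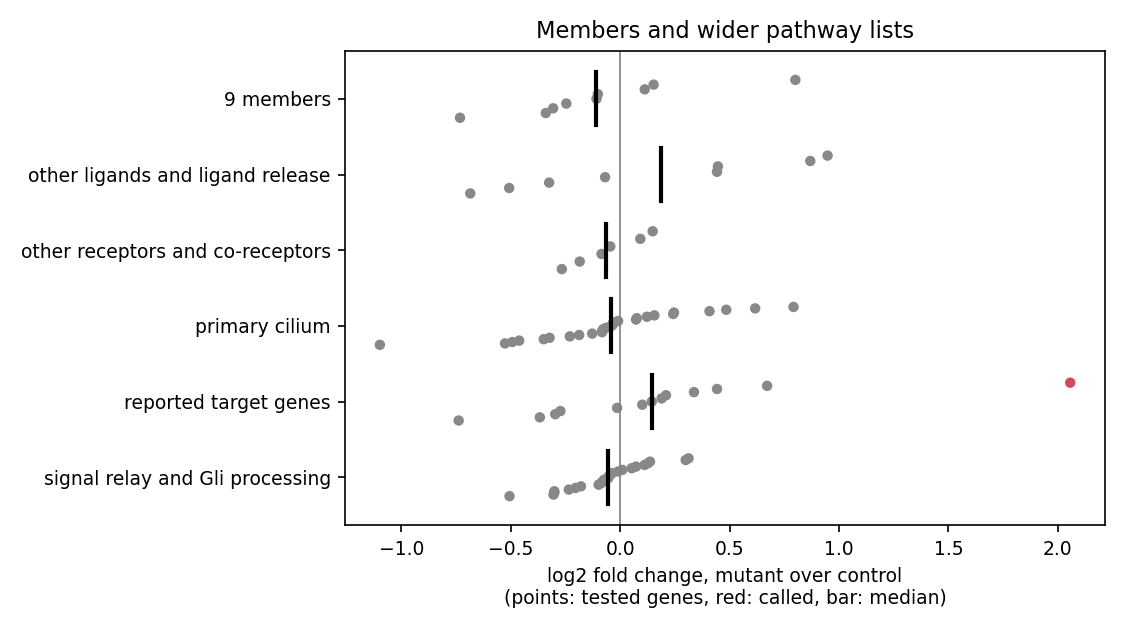
Log2 fold change of mutant over control for the 9 members and for the tested genes of 5 wider pathway lists; each point is a gene, red marks a call at an adjusted p under 0.05 and the black bar is the median of the list. The points lie on both sides of 0 in every list, and Igfbp3 at 2.06 is the only red one.

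The genes whose profile over the 6 libraries was nearest that of Shh were found among 10176 genes with a mean of at least 5 CPM, by the root mean square distance between log2 CPM values centred on their mean. They were Gemin2 (distance 0.10), of the machinery that assembles splicing particles, Tyms (0.13), an enzyme that makes thymidylate for DNA synthesis, Sdr16c6 (0.15), Edar (0.16) and Akap7 (0.17), against a median distance of 0.83. Tyms was at 47.6, 67.6 and 24.7 CPM in controls and 29.5, 42.8 and 16.04 CPM in mutants. Being chosen for this profile, all 5 were, like Shh, highest in number 2 and lowest in number 3 of each group. Also like Shh, all 5 were higher in each female library than in every male one. Tyms was at 42.8 to 67.6 CPM in female and 16.04 to 29.5 CPM in male libraries, and Edar at 94.5 to 119 and 27.3 to 72.4 CPM. The part of sex in these profiles was not tested. With the block Tyms and Edar were called lower (adjusted p = 0.0251 and 0.0385), and Gemin2, Sdr16c6 and Akap7 were not (0.294, 0.103 and 0.279). Without number 1 or number 2 Tyms, like Edar, was no longer called (0.120 and 0.0670). For Gli1 the nearest were Wiz (0.04), Zfp384 (0.04), Rbm41 (0.05), Ncoa6 (0.05) and Ccndbp1 (0.05), against a median distance of 0.31. None of these was called in either edgeR fit, and by their choice all were highest in control 3, as Gli1 was. The names depend on the libraries used: without any 1 library 2 to 4 of the 5 genes near Shh and 1 or 2 of the 5 near Gli1 were again among the nearest, and without number 1, 2 or 3 it was 3, 0 and 1 of those near Shh and 1, 0 and 0 of those near Gli1.

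**Figure D5:**
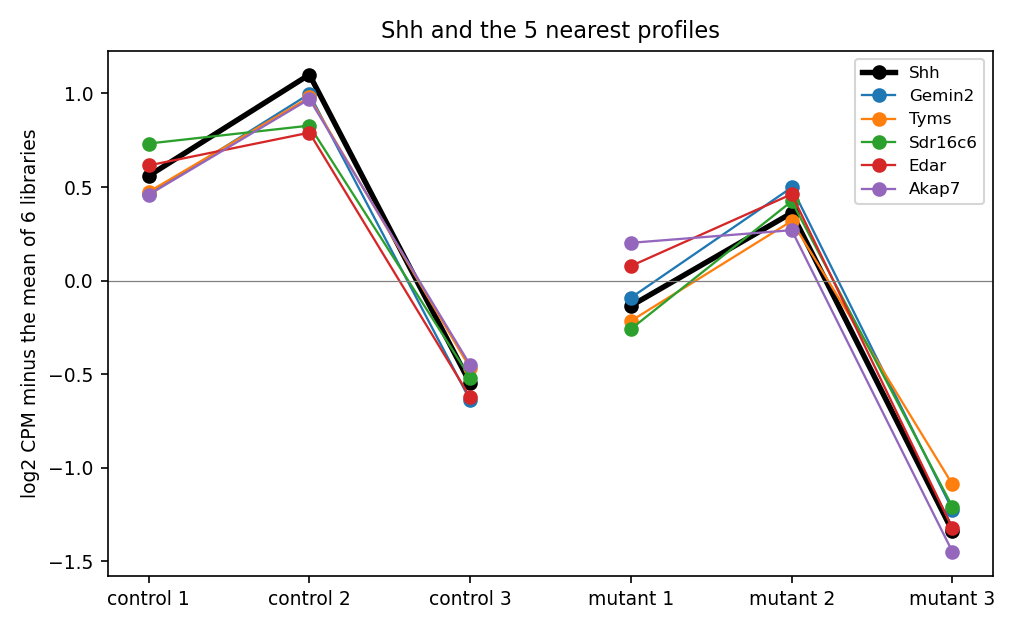
Log2 CPM of Shh (black) and of its 5 nearest genes in each library, minus each gene's mean over the 6 libraries; lines join libraries of a group only to guide the eye. All 6 genes lie above 0 in controls 1 and 2 and mutant 2, which are the female libraries, and below 0 in control 3 and mutant 3.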

How the data were processed

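Each library has a deposited table of gene symbols with raw whole-number read counts, which the authors had not scaled or filtered for depth, to judge from the values. The submitters' processing notes name mm10 and, in no order or role, Cufflinks 2.2.1, DESeq2 1.6.3, HTSeq 0.6.1 and TopHat2 2.0.13. Neither gene annotation nor strand setting is stated, so the reads of opposite-strand neighbours may be mixed. Per the labels' protocols, 10 ng of RNA was amplified before library construction, and no molecular identifiers are mentioned.

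The counts were scaled by TMM, filtered with filterByExpr and tested in R 4.3.3 by the edgeR quasi-likelihood test (version 4.0.16), with group alone in the model and p-values adjusted by Benjamini-Hochberg over all tested genes. The SE was taken from the F statistic. Coordinates and exon lengths came from GENCODE on GRCm38. The steps were tested on simulated data. Alternatives were other scalings and filters, DESeq2 1.42.0, limma-voom (limma 3.58.1), a block on the replicate number, fits without 1 library or 1 number and, chosen after seeing the data, a sex term. The members and lists were chosen with earlier results of these data known. All 9 members are named, and of each wider list every called gene and up to 4 by smallest p, with the 5 genes of nearest profile to Shh and to Gli1, leaving out unnamed gene models and sex genes. Fgf20, Msx2, Lhx2, Lgr5, Nfib, Krt17, Krt79, Krt1, Krt10, Krtdap, Grhl3, Dcn, Pdgfra, Col1a1, Mki67 and Mcm6 were added after seeing values. The result of 1 further gene is not reported here.

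Whether the numbers pair the libraries was checked on deviations from the group mean. They correlated at 0.205, 0.168 and 0.363 between libraries of equal number and at 0.0891 or less between a control and a mutant of unequal number. All 3 values passed the minimum of 0.1, and the numbers were used as pairs. This pairing comes from the data, since no label says what a number stands for. Every 2 libraries differed by more than sampling noise (lowest chi-square over its degrees of freedom 26.4). By this measure the mutant nearest control 1 was mutant 2 (44.8, against 47.2 for mutant 1). For controls 2 and 3 the nearest mutant was that of the same number (58.4 and 44.8).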

Additional observations from a re-analysis of the deposited data

How the results depend on the processing

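Over the 18 alternatives the signs of Shh, Ptch1, Smo, Gli2, Gli3, Hhip and Sufu did not change. Genes changed numbered 430, and 1345 with the replicate block, 986 with DESeq2, 163 to 664 without 1 library and 797, 997 and 1926 with the block and without number 1, 2 or 3. Members called numbered 1 with the block, 0 to 1 without 1 library (Hhip without control 3, log2 fold change 1.33) and 1, 1 and 2 with the block and without number 1, 2 or 3. Shh was at -0.74 with the block and at -0.78, -0.74 and -0.71 without number 1, 2 or 3, where Hhip reached 1.40 without number 3. Without 1 library Shh ran from -1.13 to -0.32 and Hhip from 0.57 to 1.33. Called genes of the wider lists numbered 9 with the block, 4, 6 and 13 without number 1, 2 or 3, 6 with DESeq2, 2 with library totals, no filter or the sex term, and 1 to 2 without 1 library. Signs turned for values near 0: Gas1 (-0.0212, block without number 1), Gli1 (-0.20 to 0.0292 without 1 library, 0.0026 with the block without number 3) and Evc2 (-0.0747, block without number 2). With the block and without number 3 Zfp384 and Ccndbp1 were at 0.0548 and 0.0195. With library totals Zfp384 was at 0.0159. Without 1 library Cdon ran from -0.33 to 0.0811, Zfp384 from -0.12 to 0.0878, Ncoa6 from -0.24 to 0.0252 and Ccndbp1 from -0.26 to 0.0267. Of all calls 86.5% were higher in mutants, 64.9% with the block and 74.9% with DESeq2. The cause of these changes was not tested. A count of 0 allows up to 3 counts, 0.164 to 0.204 CPM, far below every member, and such limits cover counting error only.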
